A study of Mus musculus with 6 samples.

Results

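The DEAD and DEAH box RNA helicases were examined as 1 gene family in cultured 4T1 cells, an established line from a mouse mammary tumour that the labels class as triple-negative breast cancer. They are the genes of the deposited expression table whose symbols begin with Ddx or Dhx and a number, leaving out Ddx58 and Dhx58, which belong to the RIG-I-like antiviral sensors. The rule found 47 genes among 12656, 32 with a Ddx and 15 with a Dhx symbol. The study compared 4T1 cells that received LP-184, a chemotherapeutic agent, for 48 h with 4T1 cells that received DMSO, the solvent control, for which the labels give no time. Each group has 3 libraries of polyadenylated RNA. The labels name no allele and no other agent in either group. They do not say whether the libraries of a group came from separate cultures, so a p-value here rests on variation among libraries that could be purely technical.

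These helicases share a core that binds RNA and adenosine triphosphate, and are named after the amino acids of a motif in that core, Asp-Glu-Ala-Asp in the DEAD box group and Asp-Glu-Ala-His in the DEAH box group. They separate short RNA duplexes, remodel RNA-protein complexes or clamp onto RNA. In proliferating cells the nucleolus uses a large set of them to build ribosomal subunits, and the spliceosome uses another set, each acting at its own step. Others release messenger RNA at the nuclear pore, start or repress translation, work in mitochondria, or resolve RNA-DNA hybrids and guanine quadruplexes.

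The 6 libraries held 18864368 to 22471753 reads over the genes of the table, and the 10 most abundant genes held 3.66% to 3.92% of them. All 47 helicase genes passed the low-level filter (3 or more libraries at a deposited log2 CPM not below 0, CPM being reads scaled to library size). The rarest of them, Ddx60, rested on 45 reads over the LP-184 libraries and 56 over the DMSO libraries, and the next rarest, Dhx34, on 289 reads in either group. All 8 listed epithelial markers were in the table, 6 higher and 2 lower with LP-184 (limma adjusted p under 0.05). That was 75% and 25%, against 38.3% and 40.0% of all genes tested. With a trend on gene span, described below, removed, 2 of the 8 were higher and 2 lower, where 35.2% and 38.9% of all genes were. These markers summed to 3550.04 to 3583 CPM with LP-184 and 3588 to 3597 CPM with DMSO. Krt8 was at 557 ± 4.82 CPM with LP-184 and 769.8 ± 1.58 CPM with DMSO, and Epcam at 464 ± 8.28 CPM with LP-184 and 361 ± 11.7 CPM with DMSO (SD, n = 3 each). Of the receptors whose absence defines triple-negative tumours, Esr1 was at 0.381 ± 0.169 CPM with LP-184 and 10.5 ± 1.11 CPM with DMSO. Erbb2 was at 30.7 ± 2.23 CPM with LP-184 and 41.5 ± 0.506 CPM with DMSO, and Pgr was not in the table. Of 17 listed markers of leukocytes, endothelium and fibroblasts, 3 were in the table. Csf1r was at 34.5 ± 3.78 CPM with LP-184 and 1.98 ± 0.475 CPM with DMSO, and Pdgfra at 9.19 ± 1.11 CPM with LP-184 and 6.85 ± 0.670 CPM with DMSO. Lyz2 had 0 reads in every LP-184 library and averaged 1.62 CPM with DMSO. The part of these markers in the helicase results was not tested. In bulk RNA, fewer cells of a type and less RNA per cell cannot be told apart. CPM gives a scaled share of the reads and not an amount per cell.

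Most helicase transcripts took a larger share of the RNA in LP-184 cells, by moderate amounts. In limma with Benjamini-Hochberg adjustment over all 11931 genes tested, 31 of the 47 were higher at an adjusted p under 0.05 (66.0%), where 38.3% of all genes were. Another 12 were lower (25.5%), against 40.0% of all genes, and 4 did not pass. In either direction that was 43 of 47 (91.5%), where 78.3% of all genes passed. The median log2 fold change was 0.30 over the helicases and -0.01 over all genes tested. The median standard error was 0.04 for the helicases and 0.07 for all genes. Their median log2 CPM with DMSO was 6.37, against 4.95 for all genes with an annotated span. A smaller standard error lets smaller changes pass, and its part in these shares was not tested. Rises of 1.5-fold or more were found for 14 helicases (29.8%, against 18.9% of all genes) and falls of that size for 3 (6.38%, against 22.3%). Few changes were large: 3 helicases rose by 2-fold or more (6.38%, against 8.08% of all genes), namely Dhx37, Ddx24 and Dhx38, and only Ddx10 fell that far (2.13%, against 12.6%).

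The groups overlapped for 3 of the 47, Ddx3x, Dhx34 and Ddx60. LP-184 lay above DMSO for 32 helicases (68.1%, against 38.9% of all genes) and below it for 12 (25.5%, against 40.2%). Summed over the family, LP-184 libraries held 6953, 6981 and 7049 CPM and DMSO libraries 6258, 6200 and 6273 CPM, so every LP-184 library was above every DMSO library. Genes of ribosome biogenesis supplied most of that gap, with 2208 ± 17.4 CPM in LP-184 cells and 1544 ± 13.6 CPM in DMSO cells (SD, n = 3 each). Per kilobase of annotated exon, the most abundant member was Ddx5 with LP-184, at 147 CPM per kb, and Ddx39a with DMSO, at 139 CPM per kb.

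**Figure D1:**
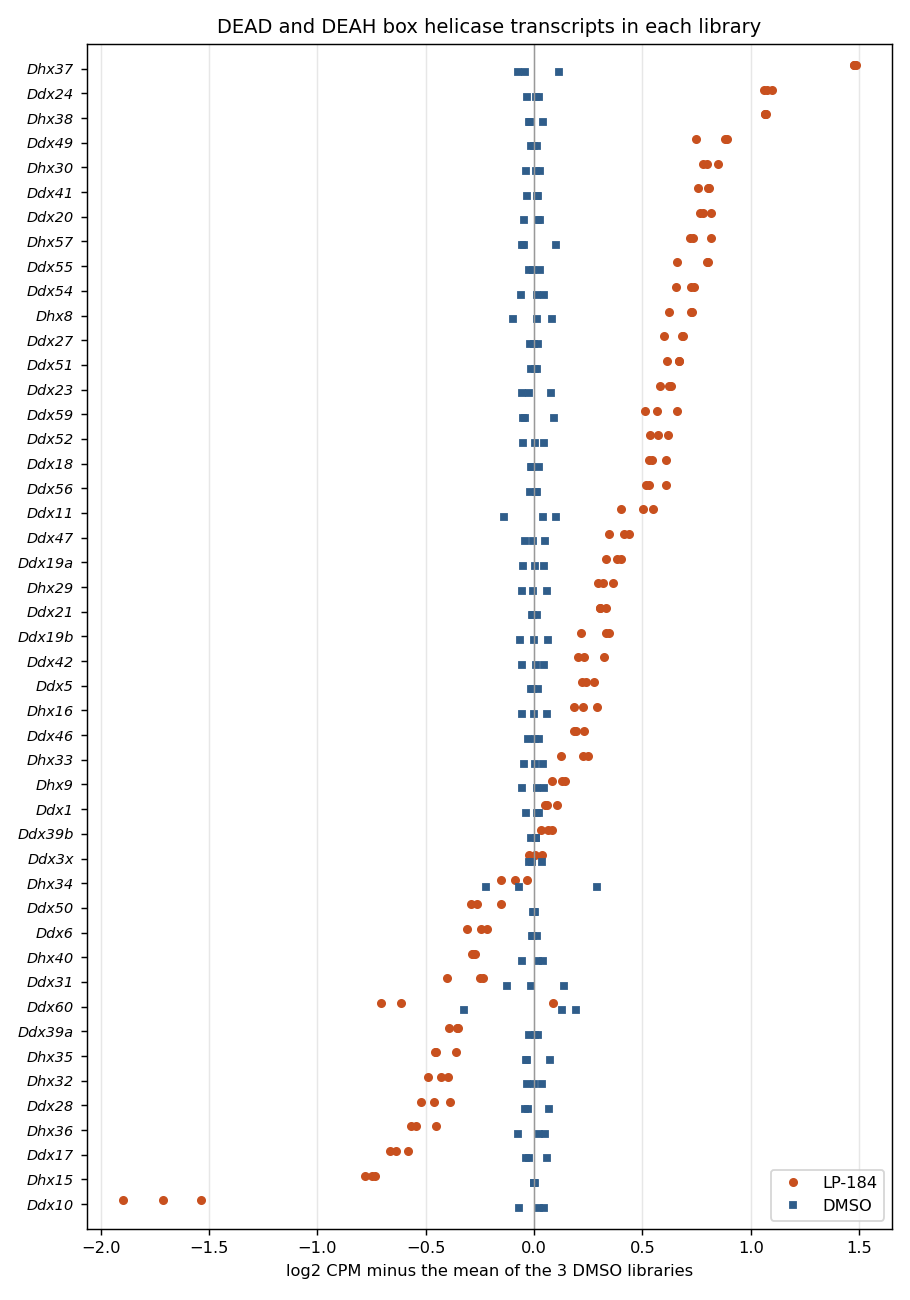
Level of each of the 47 helicase transcripts in each library, as log2 CPM minus the mean of the 3 DMSO libraries of that gene. Circles are LP-184 and squares DMSO libraries. The genes run from Dhx37, with a log2 fold change of 1.48, at the top to Ddx10, at -1.71, at the bottom, and the groups overlap for Ddx3x, Dhx34 and Ddx60.

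Most helicases of ribosome biogenesis were higher with LP-184. Of 16, 13 were higher (81.25%, against 38.3% of all genes) and 3 lower (18.75%, against 40.0%), and their median log2 fold change was 0.57. Dhx37, which in human and yeast cells releases the U3 small nucleolar RNA from the precursor of the small subunit, had the largest rise of the family. It was at 140.1, 141 and 140.1 CPM with LP-184 and 49.0, 47.8 and 54.6 CPM with DMSO, a log2 fold change of 1.48 ± 0.04 (SE, n = 3 each, limma adjusted p = 1.1e-25). The LP-184 libraries lay within 1 CPM of each other and far above every DMSO library.

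Ddx24, a factor of the large subunit, was at 232, 234 and 238 CPM with LP-184 and 112, 109 and 113 CPM with DMSO, a log2 fold change of 1.08 ± 0.03 (adjusted p = 3.4e-26). Ddx49, whose yeast relative Dbp8 acts on the small subunit, was at 78.6, 71.7 and 79.2 CPM with LP-184 and 43.1, 42.7 and 42.3 CPM with DMSO (0.84 ± 0.05). Each LP-184 library of both genes exceeded each DMSO library. Ddx49 shares 29.85% of its annotated exon bases with Homer3 on the opposite strand, and whether the counting used strand is unknown, so its reads are not certain to be its own.

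Of further large-subunit factors, 6 were higher and Ddx31, given below with the falls, was lower. The log2 fold changes of the 6 were 0.75 ± 0.07 (SE) for Ddx55, 0.71 ± 0.04 for Ddx54, 0.66 ± 0.04 for Ddx27, 0.65 ± 0.04 for Ddx51, 0.56 ± 0.03 for Ddx18 and 0.55 ± 0.04 for Ddx56, relatives of the yeast factors Spb4, Dbp10, Drs1, Dbp6, Has1 and Dbp9. Ddx18 was the most abundant of these per length, at 116 CPM per kb with LP-184 and 78.9 CPM per kb with DMSO. The small-subunit factors Ddx52 (yeast Rok1) and Ddx47 (yeast Rrp3) had values of 0.57 ± 0.04 and 0.40 ± 0.04. Ddx21, which acts in ribosomal RNA transcription and processing, was at 476, 475 and 484 CPM with LP-184 and 382, 389 and 384 CPM with DMSO (0.31 ± 0.02), and Dhx33, also tied to ribosomal RNA transcription, had the smallest rise of the set (0.20 ± 0.05). Annotated antisense transcripts cover 14.2% of the exon bases of Ddx54.

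Falls in this set were those of Ddx10, Ddx31 and Ddx50. Ddx10, related to the yeast small-subunit factor Dbp4, had the largest fall of the whole family. Its level was 12.6, 11.1 and 14.3 CPM with LP-184 and 39.5, 42.0 and 42.7 CPM with DMSO, a log2 fold change of -1.71 ± 0.08 (SE, n = 3 each, adjusted p = 1.6e-19), with no overlap. Ddx31, related to the yeast large-subunit factor Dbp7, was at -0.30 ± 0.06. Ddx50, the neighbour and paralog of Ddx21, was at 69.6, 70.8 and 76.5 CPM with LP-184 and 84.7, 85.3 and 85.0 CPM with DMSO (-0.23 ± 0.04), also with no overlap. Ddx10 covers 149 kb (chromosome 9, 53098635 to 53248053, reverse strand) and Ddx31 65.2 kb, the longest spans among these 16 genes, and Ddx50 covers 35.3 kb. With the span trend, described below, removed, Ddx10 and Ddx50 were still lower (-0.37 and -0.23) and Ddx31 was not called (0.14).

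**Figure D2:**
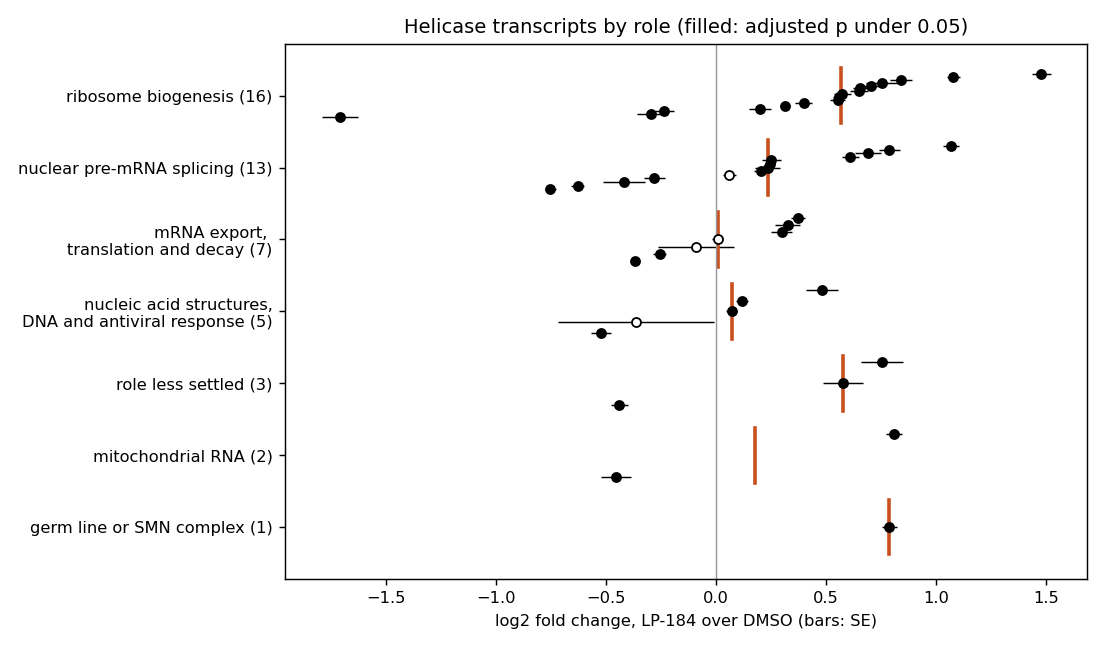
Log2 fold change of each helicase transcript, LP-184 over DMSO, grouped by role with the number of genes in brackets. Each point is a gene with its standard error, filled where the adjusted p was under 0.05, and the vertical bar is the median of the group. Ribosome biogenesis genes centre on 0.57 with Ddx10 apart at -1.71, while splicing genes spread from -0.75 to 1.07.

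Helicases of pre-mRNA splicing moved in both directions. Of 13, 8 were higher (61.5%, against 38.3% of all genes) and 4 lower (30.8%, against 40.0%). The other, Ddx39b, did not pass, and the median was 0.23. They are given in the order of the splicing cycle where a yeast relative places them. Ddx46 (Prp5 in yeast), which acts when the U2 particle joins the branch site, rose by 0.20 ± 0.03 on the log2 scale (SE). Ddx39b (Sub2 in yeast) acts at the same stage and in export, and was at 165, 163 and 159 CPM with LP-184 and 156, 156 and 154 CPM with DMSO. Its log2 fold change was 0.06 ± 0.03 (adjusted p = 0.071, 95% interval -0.0019 to 0.12), and it passed as higher with median centring of the libraries (0.15) and as lower with the trend on gene span, described below, removed (-0.26, adjusted p = 1.1e-07).

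Ddx23 (Prp28), which exchanges U1 for U6 at the 5′ splice site, rose by 0.61 ± 0.04. Dhx16 (Prp2), which drives the last remodelling before catalysis, rose by 0.23 ± 0.06, a call that was lost with the span trend removed (-0.09). Dhx38 (Prp16), which remodels the spliceosome between the catalytic steps, rose most: it was at 155, 155 and 155 CPM with LP-184 and 72.8, 76.0 and 73.0 CPM with DMSO (1.07 ± 0.04, adjusted p = 3.5e-24). Dhx8 (Prp22), which releases the spliced message, rose by 0.69 ± 0.06.

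Dhx15 (Prp43), which takes the spent spliceosome apart and also acts in ribosome biogenesis, went the other way. It was at 220.2, 227 and 225 CPM with LP-184 and 377, 379 and 377 CPM with DMSO, a log2 fold change of -0.75 ± 0.02 (SE, n = 3 each, adjusted p = 2.3e-24), the second largest fall of the family. The DMSO libraries of Dhx15 spread by less than 2 CPM, and each exceeded every LP-184 library. Dhx15 covers 40.3 kb on chromosome 5 (52150203 to 52190514).

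The remaining splicing genes were Ddx41, a DEAD box protein of the catalytic spliceosome that is also known in DNA sensing, which rose by 0.79 ± 0.05, Ddx42, a partner of the SF3B complex (0.25 ± 0.04), and Dhx35 (-0.42 ± 0.10) and Dhx40 (-0.28 ± 0.05). An annotated antisense transcript covers 17.4% of the Ddx41 exon bases. Ddx5 and Ddx17, paralogs that act in splicing, transcription and microRNA processing, were called in opposite directions, though with the span trend removed both were lower (-0.12 and -0.87). Ddx5 was at 847, 837 and 869 CPM with LP-184 and 728, 717 and 711 CPM with DMSO (0.24 ± 0.02). Ddx17 was at 189, 185 and 196 CPM with LP-184 and 306, 289 and 285 CPM with DMSO (-0.63 ± 0.03). The groups overlapped for neither gene.

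Among 7 helicases of messenger RNA export, translation and decay, 3 were higher (42.9%, near the 38.3% of all genes). Another 2 were lower (28.6%, against 40.0%) and 2 did not pass, with a median of 0.01. Ddx39a, which loads export factors onto messenger RNA, was the most abundant of them and fell. It was at 559.7, 558 and 544 CPM with LP-184 and 717, 704 and 722 CPM with DMSO, a log2 fold change of -0.37 ± 0.02 (adjusted p = 8.5e-18). Of its exon bases, 17.4% are shared with Adgre5 on the opposite strand. Ddx19a and Ddx19b, which strip proteins from messages at the cytoplasmic face of the nuclear pore, both rose. Ddx19a was at 181, 187 and 190.0 CPM with LP-184 and 144, 139 and 148 CPM with DMSO (0.37 ± 0.03). Ddx19b was at 65.6, 71.8 and 71.0 CPM with LP-184 and 59.0, 53.9 and 56.5 CPM with DMSO (0.30 ± 0.05). The groups overlapped for neither.

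Ddx3x, which helps ribosomes start on structured messages, was at 425, 443 and 433 CPM with LP-184 and 428, 425 and 442 CPM with DMSO, and its groups overlapped (log2 fold change 0.01 ± 0.02, 95% interval -0.04 to 0.05, adjusted p = 0.80). Dhx29, which works with the scanning small subunit, rose by 0.32 ± 0.06. Ddx6, a translational repressor of processing bodies, fell by 0.26 ± 0.03 on the log2 scale. Dhx34, a factor of nonsense-mediated decay, was at 4.60 ± 0.195 CPM with LP-184 and 4.95 ± 0.933 CPM with DMSO (-0.09 ± 0.17, adjusted p = 0.64), with a 95% interval of -0.44 to 0.26.

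The mitochondrial pair moved in opposite directions. Dhx30, of the mitochondrial RNA granules, was at 142, 149 and 144 CPM with LP-184 and 84.1, 83.1 and 80.4 CPM with DMSO (0.81 ± 0.04, adjusted p = 1.5e-20). Ddx28, which acts in assembly of the mitochondrial ribosome, was at 25.8, 24.8 and 27.2 CPM with LP-184 and 37.3, 34.6 and 34.9 CPM with DMSO (-0.45 ± 0.07, adjusted p = 1.6e-07). Neither gene's groups overlapped. Ddx28 is annotated with 1 exon and spans 2.26 kb, the shortest gene of the family.

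Of 5 helicases that act on unusual nucleic acid structures, on DNA or in antiviral defence, 3 were higher (60%, against 38.3% of all genes). Another was lower (20%, against 40.0%) and 1 did not pass, with a median of 0.07. Dhx36, which unfolds guanine quadruplexes, fell: it was at 57.3, 56.3 and 61.0 CPM with LP-184 and 86.6, 79.3 and 84.9 CPM with DMSO (-0.52 ± 0.05, adjusted p = 1.9e-12). Ddx11, a DNA helicase of sister chromatid cohesion, was at 30.9, 33.2 and 34.3 CPM with LP-184 and 25.2, 21.3 and 24.1 CPM with DMSO (0.48 ± 0.07). Dhx9, which unwinds RNA-DNA hybrids, was at 275, 285 and 287 CPM with LP-184 and 263, 250.03 and 268 CPM with DMSO (0.12 ± 0.03). Ddx1, of the transfer RNA ligase complex, was only slightly higher (0.07 ± 0.03, adjusted p = 0.017), and that call was lost without LP-184 replicate 2, without DMSO replicate 2, with quantile normalization and without the variance trend.

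Ddx60, whose human relative is induced by interferon, was not detectably higher. It had 14, 12 and 19 reads in LP-184 libraries and 20, 22 and 14 in DMSO libraries (log2 fold change -0.36 ± 0.35, 95% interval -1.08 to 0.36, adjusted p = 0.35). Ddx60 spans 110 kb. With the span trend, described below, removed it was at 0.58 ± 0.30 (SE), still not called (limma adjusted p = 0.085). The RIG-I-like sensors left out by the rule were higher with LP-184: Rigi was at 33.1 ± 0.341 CPM with LP-184 and 11.9 ± 1.89 CPM with DMSO, Ifih1 at 22.9 ± 1.07 CPM with LP-184 and 11.4 ± 1.20 CPM with DMSO, and Dhx58 at 3.57 ± 0.233 CPM with LP-184 and 0.764 ± 0.377 CPM with DMSO (SD, n = 3 each). Their log2 fold changes were 1.48 ± 0.09, 1.01 ± 0.10 and 2.19 ± 0.30 (SE). Dhx58 was at 1.13, 0.792 and 0.375 CPM in DMSO libraries, and passed the low-level filter only because of its LP-184 libraries.

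Outside these roles, Ddx20, known as Gemin3 of the SMN complex that assembles small nuclear ribonucleoproteins, was at 172, 177 and 171 CPM with LP-184 and 97.2, 101 and 102 CPM with DMSO (0.79 ± 0.03, adjusted p = 4e-21). Dhx57 was at 19.5, 19.7 and 20.9 CPM with LP-184 and 11.4, 11.5 and 12.7 CPM with DMSO (0.75 ± 0.09), and Ddx59 rose by 0.58 ± 0.09. Dhx32 was at 85.3, 81.9 and 87.3 CPM with LP-184 and 115, 118 and 112 CPM with DMSO (-0.44 ± 0.04). The groups overlapped for none of these 4 genes, whose roles other than that of Ddx20 are less settled.

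Paralogous helicases offered a within-library comparison, since each pair shares its libraries and depth. Each difference in log2 ratio restates the fold changes of both genes given above, so it is not separate evidence. The log2 ratio of Ddx5 to Ddx17 was 2.17, 2.18 and 2.15 in LP-184 libraries and 1.25, 1.31 and 1.32 in DMSO libraries, a difference of 0.87. For Ddx21 over Ddx50 the means were 2.73 ± 0.06 with LP-184 and 2.18 ± 0.01 with DMSO, a difference of 0.55. For Ddx39a over Ddx39b they were 1.77 ± 0.01 with LP-184 and 2.20 ± 0.03 with DMSO, a difference of -0.43 (SD, n = 3 each). In these 3 pairs the groups did not overlap, and the exact two-sided permutation p was 0.10, the smallest that 3 libraries against 3 allow. The ratio of Ddx19a to Ddx19b was 1.42 ± 0.04 with LP-184 and 1.35 ± 0.05 with DMSO, and its groups overlapped (difference 0.07, exact permutation p = 0.20). Adjusted over the 4 pairs compared (Benjamini-Hochberg), these p-values were 0.133 for the first 3 pairs and 0.20 for the last. The treatment of reads that match both genes of a pair is unknown.

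**Figure D3:**
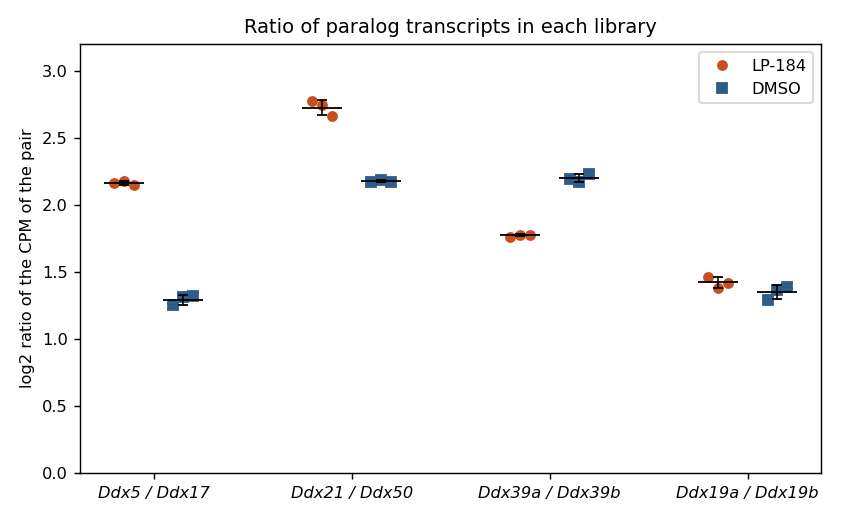
Log2 ratio of the CPM of 4 paralog pairs in each library. Circles are LP-184 and squares DMSO libraries, with the mean and SD as a bar. The Ddx5 to Ddx17 ratio sits near 2.17 in LP-184 libraries and 1.29 in DMSO libraries, and the Ddx19a to Ddx19b ratios overlap.

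Fold changes across all genes fell with gene span, the length from first to last annotated exon, and the helicases were placed against that trend. The Spearman correlation of log2 fold change with span was -0.41 over the 47 helicases and -0.49 over 11622 genes with an annotated span, a description across genes that share libraries. The helicases were of ordinary length, with a median span of 22.03 kb against 21.67 kb for all genes. Of 7 helicases under 10 kb, 6 were higher and 1 lower, where 49.3% of all genes of that span were higher and 21.6% lower. Of 13 from 10 to 20 kb, 9 were higher and 2 lower (58.1% and 21.2% of all genes). Of 9 from 20 to 30 kb, 8 were higher and 0 lower (47.9% and 29.5%). Of 12 from 30 to 50 kb, 7 were higher and 5 lower (34.6% and 41.9%), a share of falls close to that of all genes. Of 6 at 50 kb or more, 1 was higher and 4 were lower (66.7%), below the 79.5% of all genes of that span that were lower, while 8.60% were higher. The helicase that was higher there was Dhx57, of 52.2 kb. Without Ddx10 and Ddx60, the longest members, the correlation was -0.35.

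**Figure D4:**
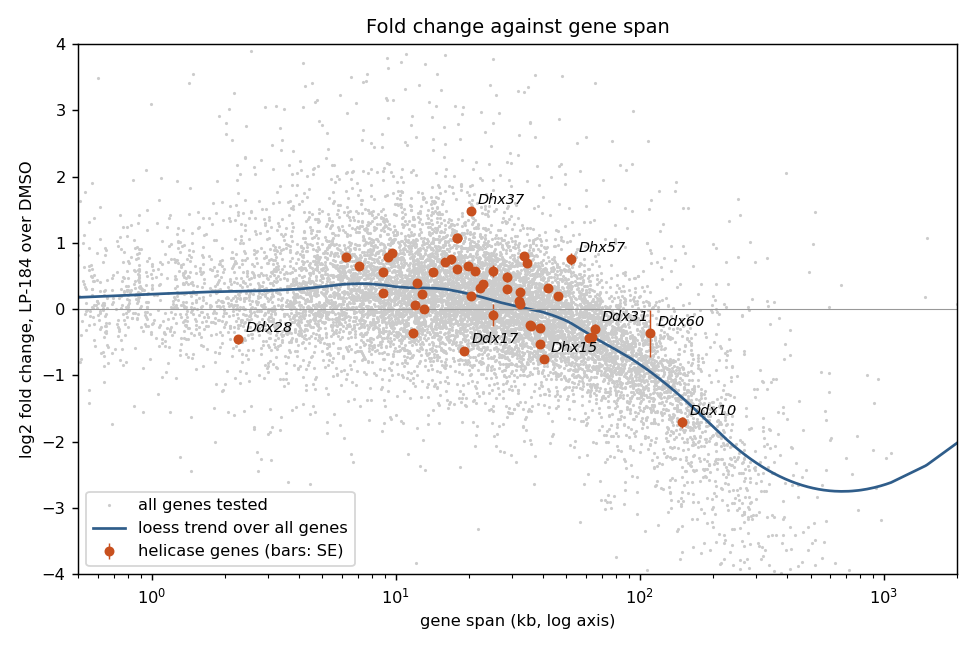
Log2 fold change, LP-184 over DMSO, against gene span in kb on a log axis. Grey dots are the genes tested that have an annotated span (some with changes beyond 4 or very short or long spans lie outside the frame), the line is the loess trend over them, and larger points are the 47 helicases with standard errors. Dhx37, at 1.48, lies above the trend, Dhx15, Ddx17 and Ddx28 lie below it, and Ddx10, at -1.71, lies near the trend value of -1.34 at its span.

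With the trend removed, 26 helicases were higher (55.3%, against 35.2% of all genes) and 12 lower (25.5%, against 38.9%). Together that was 38 of 47 (80.9%), where 74.2% of all genes passed. The median was 0.20, against -0.03 over all genes with an annotated span. The trend at the span of Ddx10 was -1.34, which left -0.37 (adjusted p = 0.00012). Removal ended the calls of Ddx31 (0.14), Dhx35 (-0.01) and Dhx32 (-0.06) among those that were lower, and of Ddx47 (0.08), Dhx16 (-0.09), Dhx33 (-0.02) and Ddx1 (0.04) among those that were higher. Dhx15 (-0.70), Ddx17 (-0.87), Ddx28 (-0.72), Ddx39a (-0.69) and Dhx36 (-0.49) stayed lower, as did Ddx6 (-0.25), Dhx40 (-0.24) and Ddx50 (-0.23). The largest values among those that stayed higher were those of Dhx37 (1.26), Dhx57 (0.97), Ddx24 (0.81), Dhx38 (0.80) and Dhx30 (0.79). The trend was above 0 at the spans of Ddx3x, Ddx39b and Ddx5, of 13.1, 12.0 and 8.83 kb, and these became lower: Ddx3x was then at -0.31, Ddx39b at -0.26 and Ddx5 at -0.12. In the ribosome biogenesis set 11 remained above and 2 below 0 at an adjusted p under 0.05, with a median of 0.26. In the splicing set 6 were higher and 5 lower.

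Other properties gave correlations nearer 0. Over the helicases the Spearman correlation of log2 fold change was -0.13 with exon length, 0.06 with the largest annotated number of exons, and -0.18 with the DMSO level. Over all genes these were -0.28, -0.22 and -0.12. The helicases have a median of 17 exons, against 9 for all genes.

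RefSeq promoter windows of GRCm38.p6, from 250 bases before to 50 after a gene's start, were found for 42 of the 47 genes, 53 windows in all. They were searched on both strands for CCGGAAG, the core bound by ETS factors, for the GC box GGGCGG, for CCAAT, for TATAAA and for the E-box CACGTG. The ETS-type core was found in 39.6% of the helicase windows, against 18.5% of 11366 windows of genes tested and 8.86% of 32851 windows of all genes. It was about as frequent in windows of helicases that rose (13 of 34, 38.2%) as in those of helicases that fell (5 of 14, 35.7%). The GC box was in 56.6% of helicase windows and 64.1% of windows of genes tested, CCAAT in 43.4% and 38.1%, TATAAA in 9.43% and 6.84%, and the E-box in 9.43% and 10.1%. The motifs were chosen with the windows in view, no test was run, and windows of 1 gene can overlap.

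A pair of risen genes, Dhx37 and Ddx55, and a pair of fallen ones, Ddx10 and Dhx36, are shown as the largest rises and falls among the helicases with 1 RefSeq window and the ETS-type core in it, so the core is in all 4 by that choice. Capitals mark the motifs named above, and the core begins at base 187 of the Dhx37 window, 240 of Ddx55, 64 of Ddx10, and 204 and 236 of Dhx36.
Dhx37 (log2 fold change 1.48, chr5:125433999-125434298, reverse strand): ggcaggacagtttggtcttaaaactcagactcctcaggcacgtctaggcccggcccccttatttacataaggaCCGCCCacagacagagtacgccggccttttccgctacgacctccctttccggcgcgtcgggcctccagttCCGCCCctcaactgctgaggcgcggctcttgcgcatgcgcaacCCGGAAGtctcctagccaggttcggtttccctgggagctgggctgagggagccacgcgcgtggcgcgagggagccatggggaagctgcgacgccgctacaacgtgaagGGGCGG
Ddx55 (0.75, chr5:124552614-124552913, forward strand): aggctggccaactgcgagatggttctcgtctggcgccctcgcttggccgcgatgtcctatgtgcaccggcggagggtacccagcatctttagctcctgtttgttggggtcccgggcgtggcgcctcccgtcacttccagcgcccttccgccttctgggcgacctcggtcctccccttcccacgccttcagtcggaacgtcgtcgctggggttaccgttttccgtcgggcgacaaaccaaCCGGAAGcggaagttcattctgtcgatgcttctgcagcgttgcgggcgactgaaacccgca
Ddx10 (-1.71, chr9:53248063-53248362, reverse strand): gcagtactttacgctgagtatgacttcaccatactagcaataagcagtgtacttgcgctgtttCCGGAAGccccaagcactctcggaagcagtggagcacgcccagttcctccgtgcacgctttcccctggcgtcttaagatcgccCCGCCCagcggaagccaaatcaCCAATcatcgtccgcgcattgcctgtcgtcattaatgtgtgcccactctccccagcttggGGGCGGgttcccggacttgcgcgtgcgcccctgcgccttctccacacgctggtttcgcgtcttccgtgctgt
Dhx36 (-0.52, chr3:62506939-62507238, reverse strand): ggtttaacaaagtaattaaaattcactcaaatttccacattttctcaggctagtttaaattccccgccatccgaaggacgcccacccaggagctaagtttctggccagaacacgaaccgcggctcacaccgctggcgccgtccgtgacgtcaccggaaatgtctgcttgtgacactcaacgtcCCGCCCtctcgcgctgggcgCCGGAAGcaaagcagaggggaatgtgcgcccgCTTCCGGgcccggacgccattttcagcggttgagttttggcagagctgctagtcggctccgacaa

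Other RNA helicases, from a list that includes the eIF4A proteins and the Ski2-like, Upf1-like and RIG-I-like families, moved in both directions. Of 23 tested, 13 were higher (56.5%, against 38.3% of all genes), 7 lower (30.4%, against 40.0%) and 3 not called, around a median of 0.16 on the log2 scale. Among them the largest changes were those of Ascc3, a helicase that splits stalled ribosomes, at 7.25 ± 0.476 CPM with LP-184 and 40.8 ± 2.50 CPM with DMSO (SD, n = 3 each, log2 fold change -2.48 ± 0.09), and of Dhx58 and Rigi, given above. Ascc3 spans 259 kb and was at -0.33 with the span trend removed. Dhx58, counted among the 13 that were higher, passed the low-level filter only because of its LP-184 libraries. The DEAD box proteins that lack a Ddx symbol were not all on 1 side of 0: Eif4a1, the translation initiation helicase, was at -0.27 ± 0.02, Eif4a2 at 0.12 ± 0.03 and Eif4a3, of the exon junction complex, at 0.48 ± 0.02. The spliceosomal helicase Snrnp200 (Brr2) rose by 0.37 ± 0.03.

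Of 47 cofactors and partners of these helicases tested, 30 were higher (63.8%, against 38.3% of all genes), 10 lower (21.3%, against 40.0%) and 7 not called, around a median of 0.25 on the log2 scale. The largest changes were those of Tfip11, the activator of Dhx15 in spliceosome disassembly, at 180.2 ± 6.79 CPM with LP-184 and 70.1 ± 1.42 CPM with DMSO (1.36 ± 0.04), of Edc4, a decapping scaffold that works alongside Ddx6 (1.28 ± 0.04), and of Gemin4, a partner of Ddx20 at 2.10 ± 0.483 CPM with LP-184 and 0.842 ± 0.168 CPM with DMSO (1.22 ± 0.29). Gemin4 was at 0.805, 1.03 and 0.696 CPM in DMSO libraries. It passed the low-level filter only because of its LP-184 libraries, and is counted among the 30 that were higher. Further partners were picked after their values were seen, on both sides of 0. Of the proteins with a G-patch, the motif through which Dhx15 and Dhx16 are activated, Nkrf rose by 1.16 ± 0.06 and Gpkow by 0.56 ± 0.04. Rbm5 rose by 0.53 ± 0.05, Gpatch3 by 0.49 ± 0.13, Sugp1 by 0.48 ± 0.05, and Gpatch4 and Rbm17 by 0.38 each. Gpatch1 was lower at -0.99 ± 0.18, Gpatch2 at -0.79 ± 0.10 and Pinx1 at -0.52 ± 0.08, and Gpatch8 and Gpatch11 were not called. With the span trend removed, Gpatch1 was at -0.92, Gpatch2 at 0.43 and Pinx1 at -0.18. The risen genes were then at 0.86 (Nkrf), 0.24 (Gpkow), 0.48 (Rbm5), 0.14 (Gpatch3), 0.42 (Sugp1), 0.06 (Gpatch4) and 0.13 (Rbm17). Utp14a, the partner of Dhx37, rose by 0.80 ± 0.05. Thoc2, of the export complex that Ddx39b joins, was at -1.15 ± 0.05, and Cnot1, which binds Ddx6, at -0.55 ± 0.03. With the span trend removed these were at -0.05 and 0.15.

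The authors' deposited table of their own comparison gave the same call for each of the 47 helicases at an adjusted p under 0.05, 31 higher and 12 lower. The log2 fold changes in the authors' deposited table differed from those given here by at most 0.04, the widest gap being that of Ddx60.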

How the data were processed

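RNA sequencing libraries of 4T1 cells, 3 with LP-184 and 3 with DMSO, were compared. The authors deposited log2 CPM for 12656 genes. Each Ctrl column was matched to the DMSO library with its number. Per the submitters' processing notes, whose roles and order are unstated, the software included STAR 2.7, Subread 2.0, featureCounts, fastp and edgeR, and the builds hg38 and mm10. Settings, annotation and strand are unknown. 0 reads had the same value (-3.34) in every library, and undoing this offset left 100% of the values whole (tolerance 1e-06), so that CPM and reads were recovered. The library sizes behind the CPM were adjusted ones. They were 1.007 to 1.016 times the recovered reads in LP-184 libraries and 0.984 to 0.994 times in DMSO libraries. The authors also deposited log2 fold changes with a p-value and adjusted p-value of an unnamed test, used only for comparison.

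Genes at log2 CPM 0 or more in at least 3 libraries were tested with limma 3.58.1 in R 4.3.3 (mean-variance trend, two-sided, Benjamini-Hochberg over 11931 genes, threshold 0.05). Fold changes are LP-184 over DMSO on the authors' log2 scale, whose added prior count understates changes of rare genes. SE is limma's moderated standard error. Spans, exons and coordinates (1-based) are from GENCODE M21 on GRCm38, the assembly of mm10, matched for 12306 genes, Ddx39a by its older symbol. The span trend was a loess curve (parameter 0.3) of fold change on log10 span, subtracted from LP-184 libraries. The members, roles and lists were chosen with earlier results of these data known. Libraries are given in full for the 5 largest rises and falls, for each role's largest rise, fall and highest level, and for paralog pairs. Other libraries shown, and other genes picked after their values were seen, are additions. The fit was tested on simulated counts. Python 3.11.15, pandas 2.3.3, numpy 2.4.6, scipy 1.17.1 and matplotlib 3.10.9 were used. Scaling, pseudocount, filter, variance model, voom, replicate block, left-out libraries and span trend were varied.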

Additional observations from a re-analysis of the deposited data

How the results depend on the processing

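The helicases called higher numbered 26 to 33 over 18 alternatives (31 as reported) and those called lower 12 in each. Of 798 values of all 47 helicases under 17 alternatives, calls were lost in 11, gained in 4 and reversed in 1. Among these alternatives, log2(CPM + 0.1) adds almost the offset already in the deposited values. It nearly repeats the main fit, so its unchanged calls say nothing about stability. The losses were those of Ddx1 under 5 alternatives, including the span trend removed, and of Ddx31, Ddx47, Dhx16, Dhx32, Dhx33 and Dhx35 with that trend removed. The gains were those of Ddx39b and Ddx3x, as higher with median centring and as lower with the span trend removed. The median log2 fold change of the helicases was 0.39 with median centring, 0.27 to 0.32 with single libraries left out and 0.20 with the span trend removed. Median centring moves the fold changes of all genes by the same amount. The correlation with span was -0.026 once that trend was removed, as its construction implies. Removal also reversed the call of Ddx5 (-0.12, adjusted p = 1.1e-05) and ended that of Dhx32 (-0.06). The sign of Ddx39b, not called in the main fit, changed with it (-0.26, adjusted p = 1.1e-07). Ddx39b was at 0.15 with median centring. With the replicate number as a block, 9291 genes differed, against 9341 without it, and 31 helicases were higher and 12 lower, so it changed no helicase call. The deviations of same-numbered libraries correlated at -0.02 to -0.01, and the labels do not say that a number is shared. Ddx60, at 12 to 22 reads per library, and Dhx34 are limited by depth. With the stricter filter Ddx60 was not tested.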
